A study of Mus musculus with 12 samples.

Results

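The genes described here are Zbtb7b and 9 genes beside it on mouse chromosome 3, namely Dcst2, Dcst1, Adam15, Efna4, Efna3, Efna1, Slc50a1 and Krtcap2 on one side and Flad1 on the other. They were chosen by symbol and position, with earlier results of these data known. A probe set was used where its annotation named exactly 1 of the 10 symbols. That gave 11 probe sets for the 10 genes, since Adam15 had a brighter and a dimmer one, out of 23521 probe sets with 1 symbol and 22180 genes measured. A further 2 probe sets that named Flad1 together with another gene were not used.

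RNA came from brown adipose tissue, the heat-producing fat, of male mice aged 10 weeks, and was hybridised to whole-transcript arrays, 12 in all. The 4 groups of 3 arrays were Zbtb7b knockout (KO) and wild-type (WT) mice at 22 °C (room temperature), and KO and WT mice after 4 h at 4 °C (cold). The labels give neither the strain nor how the allele was made, nor the cells in which the gene was removed, and one of their fields names liver, pools and another knockout. The titles call the arrays biological replicates, while that field names pools, and how many animals an array stands for is not known. Every p-value rests on the spread among these arrays, which may be technical. Values are log2 signals, whose median per array lay between 2.63 and 2.83. Where a group mean was under 4, a cutoff set for low signal, only log2 differences are given and no fold. The number of arrays limits the precision, and arrays of the same group correlated at r = 0.970 to 0.985 over probe sets, which are not independent replicates.

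The brown fat markers Ucp1 and Cidea were high on every array, at 11.55 to 12.95 and 11.49 to 12.12, while albumin (Alb), the defining transcript of liver, lay between 1.21 and 2.75. The mean of 9 measured brown adipocyte markers was 8.12 to 8.43 in KO and 8.98 to 9.09 in WT at room temperature, and 9.91 to 9.97 in KO and 9.97 to 10.08 in WT in the cold. These genes differed unevenly. At room temperature their KO minus WT log2 differences ran from -3.55 to 0.18, with a median of -0.14. With cold the median difference was 0.18 in WT and -0.14 in KO, and the highest 4.81 and 6.69. Over 8 macrophage markers the mean was 6.73 to 7.01 in KO and 5.85 to 6.25 in WT at room temperature, and 6.58 to 7.33 in KO and 6.58 to 6.88 in WT in the cold. The mean of 8 measured T cell markers was 3.69 to 4.40 in KO and 3.39 to 3.56 in WT at room temperature, and 3.46 to 3.80 in KO and 3.77 to 4.38 in WT in the cold. Markers of skeletal muscle, which borders the tissue, varied within every group, from 3.14 to 9.08 in KO and from 2.87 to 7.01 in WT at room temperature, and from 4.64 to 8.86 in KO and from 5.59 to 8.28 in WT in the cold. In bulk tissue, fewer cells of a type and less RNA per cell cannot be told apart. The part of these markers in the differences below was not tested, except where a fit with the muscle mean is given.

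Zbtb7b, also called ThPOK, is a transcription factor with a BTB domain and zinc fingers. It is best known for directing thymocytes to the CD4 lineage, and it is also known as a regulator of the thermogenic genes of brown and beige fat. Genes that lie side by side on a chromosome can share enhancers and promoters. The neighbours are of several kinds. Dcst1 and Dcst2 encode membrane proteins with a DC-STAMP domain that mouse sperm need for fertilisation. Adam15 encodes a membrane metalloprotease, Efna1, Efna3 and Efna4 encode ephrin-A ligands of EphA receptors, and Flad1 makes the flavin cofactor FAD. Slc50a1 is a sugar transporter of the SWEET family and Krtcap2 a subunit of the oligosaccharyltransferase complex, which attaches sugar chains to new proteins.

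In RefSeq's annotation of GRCm38.p6 the starts of all 10 genes could be placed. Zbtb7b is read from the minus strand and has a second start 5.71 kb downstream of the first. Flad1 starts 18.5 kb upstream of Zbtb7b's first start, on the same strand, with Lenep, which was not measured, between them. On the other side Dcst2, on the plus strand, starts 28.06 kb away and is read towards Zbtb7b. Dcst1 starts 28.12 kb away on the minus strand, back to back with Dcst2 across 65 bases. Farther out lie the starts of Adam15 at 43.35 kb, Efna4 at 55.35 kb, Efna3 from 70.44 kb, Efna1 from 112.43 kb, Slc50a1 at 122.81 kb and Krtcap2 at 146.9 kb. The results below turn on Zbtb7b, Flad1 and the Dcst pair, and their sequences before the start are printed for that reason, 250 bases for Zbtb7b (chr3:89393379-89393628, minus strand, first start) and Flad1 (chr3:89411882-89412131, minus strand), and the stretch between the 2 Dcst starts (chr3:89365254-89365318, plus strand, read towards Dcst2). Capitals mark GGGCGG (a GC box) in Zbtb7b and CCAAT in Flad1.
Zbtb7b: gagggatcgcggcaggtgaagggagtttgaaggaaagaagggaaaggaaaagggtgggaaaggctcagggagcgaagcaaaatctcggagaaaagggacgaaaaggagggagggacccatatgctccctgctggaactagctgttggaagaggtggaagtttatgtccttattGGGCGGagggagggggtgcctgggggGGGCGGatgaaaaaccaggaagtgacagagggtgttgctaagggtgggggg
Flad1: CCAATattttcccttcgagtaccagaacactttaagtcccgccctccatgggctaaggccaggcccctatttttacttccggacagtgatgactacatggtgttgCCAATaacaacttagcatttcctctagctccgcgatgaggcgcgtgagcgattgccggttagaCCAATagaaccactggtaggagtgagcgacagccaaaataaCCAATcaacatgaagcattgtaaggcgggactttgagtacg
Dcst1-Dcst2: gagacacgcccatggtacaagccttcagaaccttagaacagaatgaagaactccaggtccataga

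The Zbtb7b stretch holds 2 GC boxes and the Flad1 stretch 4 CCAAT boxes. The 65 bases between the Dcst starts are 47.7% G and C and hold none of the motifs searched, which were the GC box GGGCGG, the box CCAAT, the core TGACG of a cAMP response element and the box CACCC, each on both strands and none holding another. Over all 32851 promoter windows of RefSeq's table, each of 300 bases, the GC box was found in 35.7%, the CCAAT box in 37.4%, the TGACG core in 20.8% and the CACCC box in 57.5%. In the members' own windows of that length Adam15 had 5 GC boxes, TGACG was found in none, and the window of Dcst1 had none of the 4 motifs. A match describes the letters and is not a binding site, and a motif that is not found says only that these letters are not in this window.

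**Figure D1:**
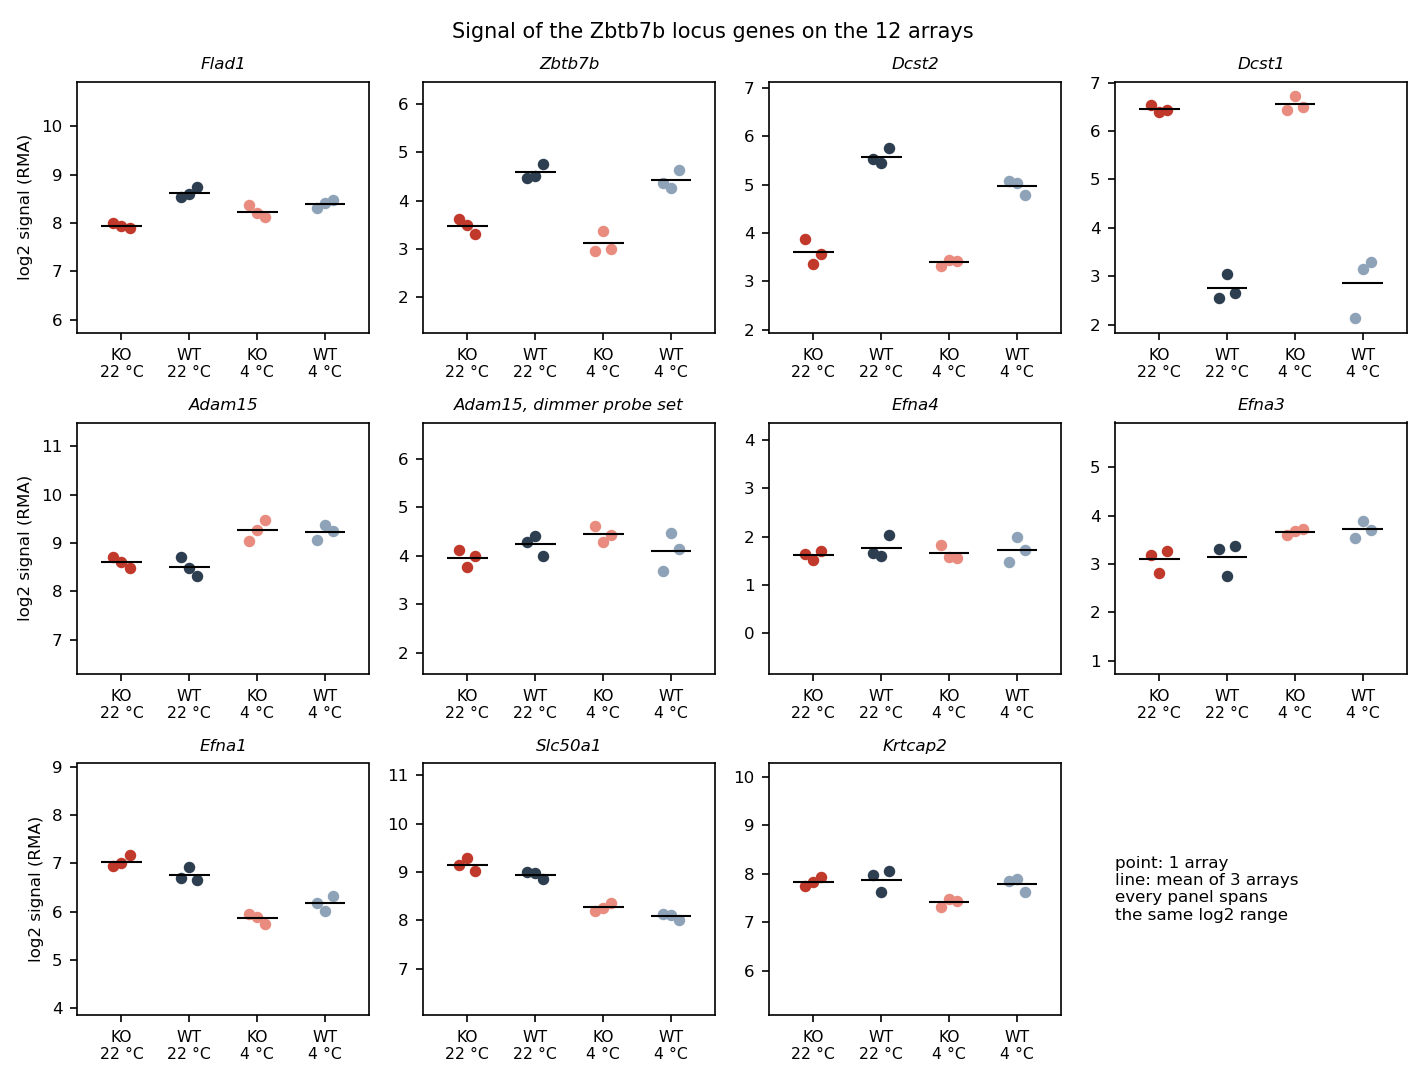
Log2 signal (vertical axis, RMA, every panel spanning the same range) of the 11 probe sets on the 12 arrays, with KO left of WT at 22 °C and then at 4 °C; each point is 1 array and each line the mean of 3 arrays. Dcst1 lies at 6.39 to 6.72 on the KO arrays and at 2.13 to 3.29 on the WT arrays, while Dcst2 and Zbtb7b lie lower on every KO array than on any WT array.

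The first question is whether the knockout of Zbtb7b went with a difference in the gene and its neighbours. At room temperature Zbtb7b had log2 signals of 3.62, 3.50 and 3.30 in KO, against 4.47, 4.52 and 4.76 in WT. In the cold its signals were 2.96, 3.38 and 3.01 in KO, against 4.36, 4.26 and 4.63 in WT. All 6 KO arrays lay below all 6 WT arrays, which fits the labels, although where the probes lie relative to the removed sequence is not given in the sources used here. The log2 difference was -1.11 ± 0.16 (SE, n = 3 per group, limma adjusted p = 0.00904) at room temperature and -1.30 ± 0.16 (adjusted p = 0.00365) in the cold. The muscle markers of KO cold replicates 1 and 3 were at 8.86 and 8.65, against 4.64 in replicate 2. With replicates 1 and 3 left out the cold difference was -1.04, resting on 1 KO cold array. The call was lost in that fit, which cannot tell muscle from fewer arrays.

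Dcst1 was the neighbour with the widest gap between genotypes. Its signals were 6.55, 6.39 and 6.44 in KO at room temperature, against 2.55, 3.05 and 2.66 in WT. In the cold they were 6.44, 6.72 and 6.49 in KO, against 2.13, 3.15 and 3.29 in WT. The WT arrays thus lay about the arrays' own median signal and the KO arrays far above it, at both temperatures. The log2 difference was 3.71 ± 0.25 at room temperature (95% interval 3.16 to 4.26, adjusted p = 3.32e-05) and 3.70 ± 0.25 in the cold (3.15 to 4.25, adjusted p = 5.14e-05). Averaged over both temperatures it was 3.70 ± 0.18 (adjusted p = 8.83e-07).

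Dcst2, whose start lies 65 bases from that of Dcst1, went the other way. In room-temperature tissue its signals were 3.88, 3.37 and 3.57 in KO, against 5.52, 5.45 and 5.75 in WT. In cold tissue they were 3.32, 3.45 and 3.42 in KO, against 5.08, 5.04 and 4.78 in WT. Again the genotypes did not overlap. It was lower in KO by a log2 difference of -1.97 ± 0.15 (adjusted p = 7.71e-05) at room temperature and -1.57 ± 0.15 (adjusted p = 0.000645) in the cold. With KO cold replicates 1 and 3 left out, which leaves 1 KO cold array, the cold difference was -1.52. The call was lost there too, and that fit cannot tell muscle from fewer arrays.

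Flad1, the next measured gene on the other side, differed less. Its signals at room temperature were 7.99, 7.93 and 7.90 in KO, against 8.54, 8.59 and 8.75 in WT. In the cold the genotypes overlapped, with 8.37, 8.20 and 8.12 in KO and 8.32, 8.41 and 8.49 in WT. It fell by 0.69 on the log2 scale (1.61-fold, SE 0.12, adjusted p = 0.0238) in KO at room temperature, and the cold difference was -0.17 ± 0.12 (95% interval -0.43 to 0.08, adjusted p = 0.541). The room-temperature call was the least stable of these 4, since it missed the threshold with the 6 room-temperature arrays alone (adjusted p = 0.101) and without any 1 of those 6 arrays (up to 0.0999).

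Of the 10 genes, 4 passed at room temperature, 1 higher and 3 lower in KO, where 0.55% of all 22180 genes passed, 0.266% higher and 0.284% lower. In the cold 3 passed, 1 higher and 2 lower, against 0.911% of all genes (0.361% higher and 0.55% lower). Averaged over both temperatures 4 passed, 1 higher and 3 lower, against 1.63% (0.794% higher and 0.834% lower). Zbtb7b, the gene knocked out, is among the lower genes in each of these counts. Of its 46 measured neighbours up to 25 places away, 3 passed at room temperature (6.52%). In the cold 2 of these neighbours passed (4.35%), and 3 averaged (6.52%). Groups that did not overlap were found for 6 of the 10 at room temperature and 6 in the cold, Zbtb7b included. The shares over all genes were 17.0% and 20.6%. Over all 6 KO against all 6 WT arrays the count was 3 (Zbtb7b, Dcst1 and Dcst2), with 0.739% over all genes. The median log2 difference of the 10 was -0.05 at room temperature and -0.13 in the cold, against 0.01 over all genes at each temperature. With the muscle mean of each array added to the fit, a setting chosen after seeing the data, each room-temperature call still passed. The differences there were 3.58 for Dcst1, -1.94 for Dcst2, -1.10 for Zbtb7b and -0.71 for Flad1. The cold calls of Dcst1, Dcst2 and Zbtb7b also passed in that fit.

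**Figure D2:**
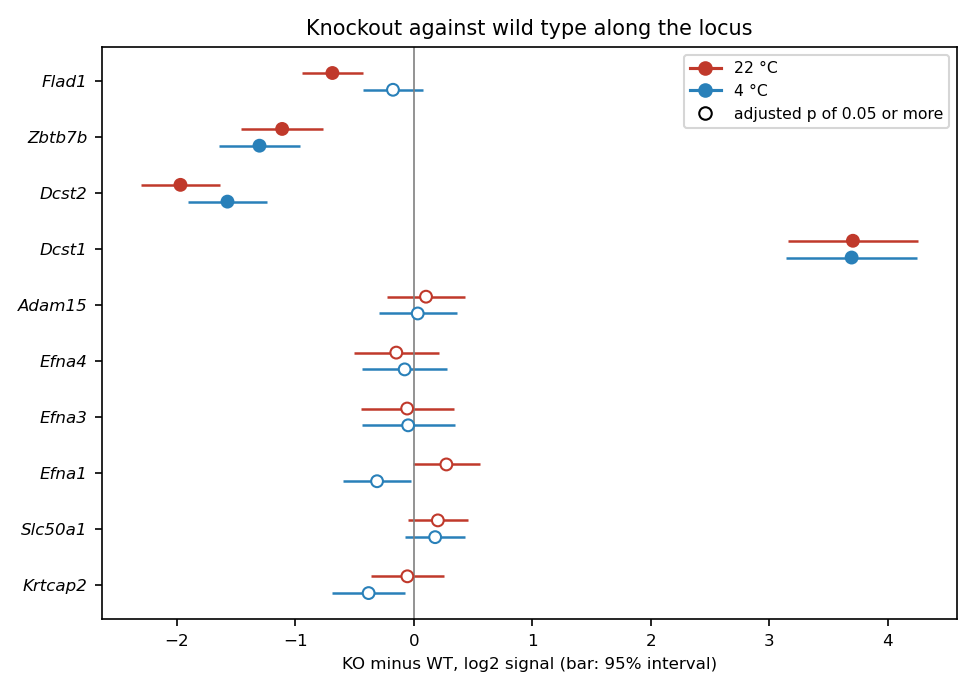
Log2 difference KO minus WT (horizontal axis) of the 10 genes in their order along the chromosome (vertical axis), at 22 °C and 4 °C; points are limma estimates from 3 arrays per group, bars 95% intervals, and open points have an adjusted p of 0.05 or more. Dcst1 stands at 3.71 and 3.70, Dcst2 at -1.97 and -1.57 and Zbtb7b at -1.11 and -1.30, and Adam15 and the genes beyond it have open points at both temperatures.

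The remaining 6 genes did not pass between genotypes at either temperature, with adjusted p from 0.455 to 0.946 at room temperature and from 0.24 to 0.949 in the cold among them. Adam15, the nearest of them, had 8.72, 8.60 and 8.48 in KO, against 8.70, 8.48 and 8.31 in WT at room temperature. In the cold it had 9.05, 9.27 and 9.47 in KO, against 9.07, 9.37 and 9.25 in WT. Its genotype groups overlapped at both temperatures, with differences of 0.10 ± 0.15 and 0.03 ± 0.15 and intervals of -0.23 to 0.43 and -0.30 to 0.36. The dimmer Adam15 probe set did not pass either (-0.27 ± 0.20, adjusted p = 0.666 at room temperature, and 0.34 ± 0.20, adjusted p = 0.475 in the cold).

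Among the ephrins, Efna4 lay between 1.48 and 2.04 on all 12 arrays, below the arrays' median signal. Efna3 differed between genotypes by -0.06 ± 0.18 at room temperature and -0.05 ± 0.18 in the cold. Efna1 was at 6.94, 7.0 and 7.17 in KO, against 6.71, 6.92 and 6.66 in WT at room temperature, and at 5.96, 5.88 and 5.75 in KO, against 6.17, 6.02 and 6.33 in WT in the cold. The KO arrays were thus above the WT arrays at room temperature and below them in the cold. Neither difference passed (0.28 ± 0.13, adjusted p = 0.455, and -0.31 ± 0.13, adjusted p = 0.307).

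Slc50a1 had 9.14, 9.28 and 9.02 in KO, against 8.99, 8.99 and 8.86 in WT at room temperature, and 8.19, 8.27 and 8.35 in KO, against 8.14, 8.12 and 8.01 in WT in the cold. Every KO array was above every WT array of its temperature, by mean log2 differences of 0.20 ± 0.12 (adjusted p = 0.558) and 0.18 ± 0.12 (adjusted p = 0.519). Krtcap2 had 7.74, 7.82 and 7.92 in KO and 7.97, 7.62 and 8.06 in WT at room temperature. In the cold it had 7.30, 7.49 and 7.44 in KO, against 7.85, 7.90 and 7.63 in WT. Its cold groups did not overlap, and the difference of -0.38 ± 0.14 (95% interval -0.69 to -0.07) did not pass over all genes (adjusted p = 0.24).

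To see how far along the chromosome such differences lay, the protein-coding genes up to 25 places to either side of Zbtb7b were followed. Of these 50 genes 46 were measured. Dcst2 at place 1, Dcst1 at place 2 on the one side and Flad1 at place 2 on the other were the ones that passed in a KO against WT comparison. Of the 37 measured neighbours that are not members, 0 passed in limma at room temperature, in the cold or averaged. Among these 37, 2, 5 and 5 had an unadjusted p under 0.05 (5.41%, 13.5% and 13.5%), against 11.4%, 14.4% and 14.7% of all genes. Their differences ran from -0.36 to 0.72 at room temperature and from -0.63 to 1.03 in the cold. Il6ra, a receptor for interleukin 6, came closest, at 0.66 ± 0.16 averaged over both temperatures (adjusted p = 0.0624).

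Farther out the share of called genes was close to that of all genes. Of 883 measured protein-coding genes on chromosome 3 other than the 10, 6 passed at room temperature (0.68%), 8 in the cold (0.906%) and 18 averaged over both (2.04%). The nearest of these to Zbtb7b, chosen after their values were seen, were Dennd4b at 27 places (0.51 ± 0.11, adjusted p = 0.0401, averaged) and Paqr6 at 44 places on the opposite side (0.75 ± 0.15, adjusted p = 0.0306, averaged). At room temperature the nearest were Noct at 248 places and Fam102b at 359 places, and in the cold Cdc42se1 at 143 places (-0.79 ± 0.13, adjusted p = 0.0184) and Tiparp at 166 places (0.98 ± 0.17, adjusted p = 0.0194).

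**Figure D3:**
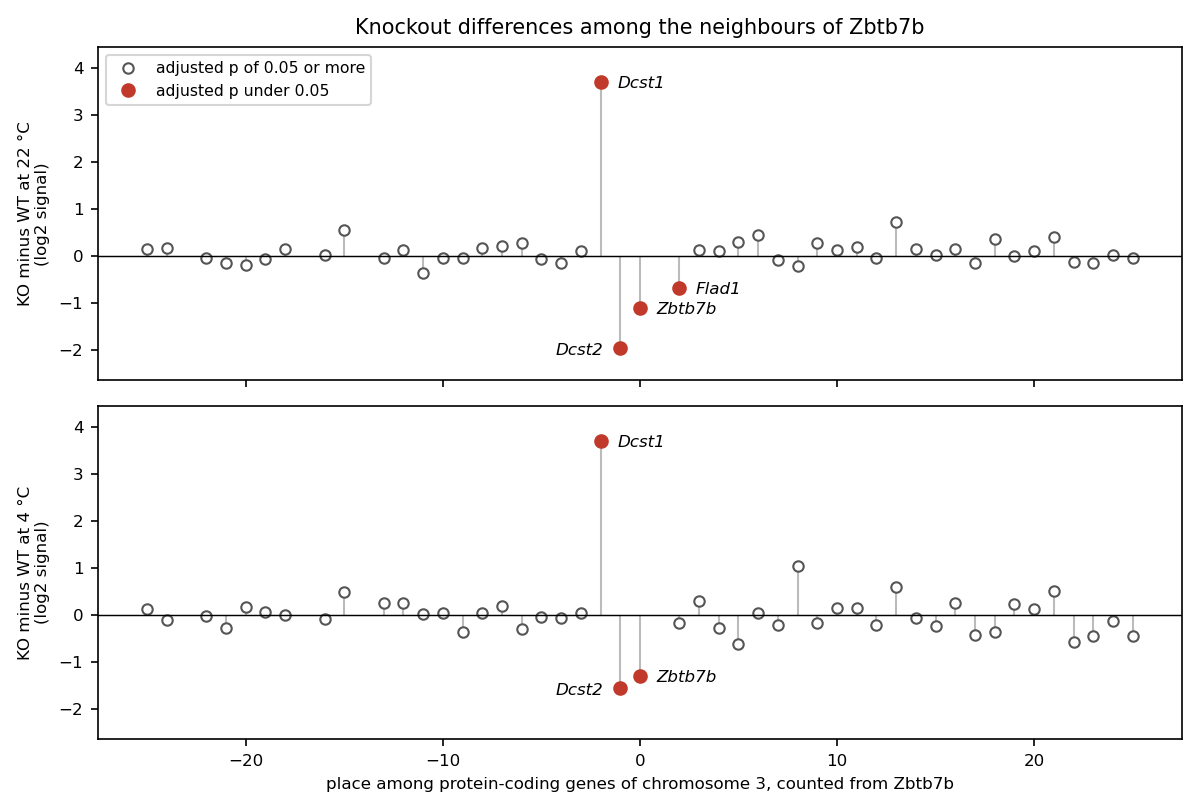
Log2 difference KO minus WT (vertical axes) of the measured protein-coding genes up to 25 places to either side of Zbtb7b (horizontal axis, place 0), at 22 °C above and at 4 °C below; filled points have an adjusted p under 0.05. Dcst1, Dcst2, Zbtb7b and, at 22 °C, Flad1 are filled, and the 37 measured genes that are not members lie between -0.63 and 1.03.

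The second question is how the same genes stood in the cold against room temperature. In WT, 5 of the 10 passed, 2 higher and 3 lower, where 17.4% of all genes passed (9.39% higher and 7.98% lower). In KO 4 passed, 2 higher and 2 lower, against 19.2% (8.34% higher and 10.8% lower). Averaged over the genotypes 5 passed, 2 higher and 3 lower, against 27.2% (12.9% higher and 14.3% lower). The median log2 difference of the 10 was -0.13 in WT and -0.09 in KO. Cold arrays did not overlap with room-temperature arrays for 6 of the 10 in WT and 6 in KO, where the shares over all genes were 36.8% and 31.6%. The WT and KO differences come from different arrays. Their p-values are not independent, since the spread was estimated from the arrays of both genotypes.

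Adam15 rose in the cold in both genotypes. From the array values above, every cold array lay above every room-temperature array, and the log2 differences were 0.66 ± 0.15 in KO (1.58-fold, adjusted p = 0.0085) and 0.73 ± 0.15 in WT (1.66-fold, adjusted p = 0.00539). Its dimmer probe set had 4.63, 4.28 and 4.42 in cold KO against 4.13, 3.76 and 4.00 in room-temperature KO, and 3.69, 4.48 and 4.14 in cold WT against 4.29, 4.41 and 4.00 in room-temperature WT. That probe set did not pass (0.48 ± 0.20, adjusted p = 0.122 in KO, and -0.13 ± 0.20, adjusted p = 0.737 in WT), and with the mean of both probe sets the WT difference was 0.30 with an adjusted p of 0.231. The 2 probe sets of Adam15 thus disagree in WT.

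Slc50a1 fell in the cold by 0.88 on the log2 scale in KO (1.84-fold, SE 0.12, adjusted p = 0.000276) and by 0.86 in WT (1.81-fold, SE 0.12, adjusted p = 0.000386), with no overlap of cold and room-temperature arrays in either genotype. Efna1 fell by 1.17 in KO (2.26-fold, SE 0.13, adjusted p = 9.62e-05) and by 0.59 in WT (1.5-fold, SE 0.13, adjusted p = 0.00812). The difference between these falls, an interaction of -0.585 ± 0.19, did not pass (limma adjusted p = 0.317).

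Efna3 was dim, with 3.60, 3.68 and 3.72 in cold KO against 3.20, 2.82 and 3.27 in room-temperature KO, and 3.54, 3.89 and 3.71 in cold WT against 3.31, 2.76 and 3.38 in room-temperature WT. The cold arrays were above the room-temperature arrays in both genotypes. Its log2 differences of 0.57 ± 0.18 in KO (adjusted p = 0.0434) and 0.56 ± 0.18 in WT (adjusted p = 0.04996) lay just inside the threshold and missed it in 9 and 10 of 12 fits that each left out 1 array. Averaged over the genotypes the difference was 0.57 ± 0.13 (adjusted p = 0.00488), and it passed in each of those 12 fits. Dcst2 fell in the cold in WT by 0.61 (1.52-fold, SE 0.15, adjusted p = 0.0159), a call that was lost without WT room-temperature replicate 3 (0.0617) or WT cold replicate 3 (0.0743). In KO, where its signal was under 4, the difference was -0.21 ± 0.15 (adjusted p = 0.414).

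Zbtb7b itself did not pass in the cold, at -0.35 ± 0.16 in KO (adjusted p = 0.154) and -0.16 ± 0.16 in WT (adjusted p = 0.566). For Dcst1 the differences were 0.09 ± 0.25 in KO and 0.10 ± 0.25 in WT (95% intervals -0.46 to 0.64 and -0.45 to 0.65). Flad1 moved by 0.29 ± 0.12 in KO (adjusted p = 0.119) and by -0.23 ± 0.12 in WT (adjusted p = 0.233), neither of which passed. Krtcap2 had -0.42 ± 0.14 in KO (adjusted p = 0.0579) and -0.09 ± 0.14 in WT (adjusted p = 0.749). Its KO difference passed in limma when a mean signal of at least 5 (adjusted p = 0.0242) or 4 (0.0289) was required. It also passed with the trended robust spread (0.0453), with the muscle mean in the fit (0.0498) and without WT room-temperature replicate 2 (0.0361).

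**Figure D4:**
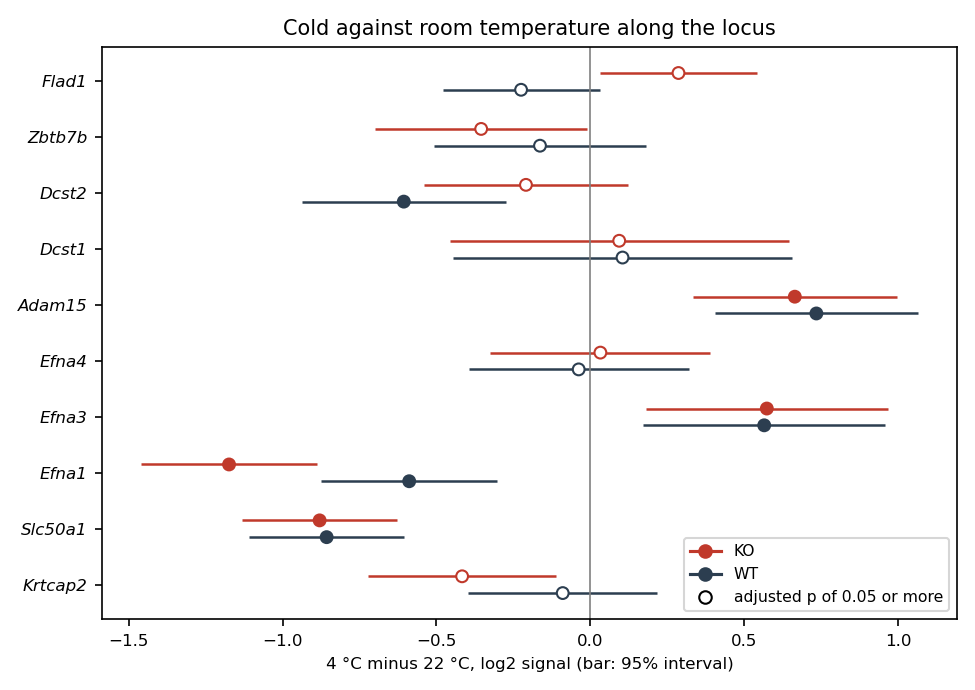
Log2 difference 4 °C minus 22 °C (horizontal axis) of the 10 genes in their order along the chromosome (vertical axis), in KO and in WT; points are limma estimates from 3 arrays per group, bars 95% intervals, and open points have an adjusted p of 0.05 or more. Adam15 and Efna3 stand to the right and Efna1 and Slc50a1 to the left in both genotypes, and Dcst2 has a filled point in WT.

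Whether the genotype difference itself depended on temperature was tested as an interaction. Of the 10 genes 0 passed in limma, where 6 of 22180 genes did (0.0271%). An unadjusted p under 0.05 was found for 2, Efna1 and Flad1 (20.0%, against 10.5% of all genes). For Dcst1 the interaction was -0.01 ± 0.36 (95% interval -0.79 to 0.77), for Dcst2 0.40 ± 0.22 (-0.07 to 0.87) and for Zbtb7b -0.19 ± 0.22 (-0.68 to 0.30).

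The profiles of Zbtb7b, Dcst1 and Dcst2 over the 12 arrays were set against those of other genes, each centred on its own mean, by the root mean square difference in log2 signal. For Zbtb7b, whose own spread about its mean was 0.64, the closest of 17314 genes were Stap2 at 0.27, Mal2 at 0.29, Mfsd8 at 0.30, Cish, a feedback inhibitor of cytokine signalling, at 0.31 and Cdkn1c, an inhibitor of the cell cycle, at 0.33. Group means of Stap2 were 5.77 in KO and 6.72 in WT at room temperature, and 5.36 in KO and 6.64 in WT in the cold. For Dcst2, with an own spread of 0.92, the closest of 9753 genes were Eci3, an enzyme of fatty acid oxidation, at 0.40, the immunoglobulin gene Igh-VS107 at 0.44, Anxa8 at 0.46, Mal2 at 0.46 and Cish at 0.47.
For Dcst1 the own spread was larger, at 1.87, and so were the distances of the closest genes in log2 units. These were Cdhr5 at 0.73, Them7 at 0.86, Ptgds, a prostaglandin D synthase, at 0.94, Prss12 at 1.02 and Crtac1 at 1.06. Cdhr5 had group means of 7.89 in KO and 5.58 in WT at room temperature, and 7.89 in KO and 5.39 in WT in the cold. The likeness is a description over arrays that share their genotype and temperature, with no test.

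Relatives of the members elsewhere in the genome were followed in 8 lists. The other DC-STAMP genes, Dcstamp and Ocstamp, which act in the fusion of osteoclasts, did not pass between genotypes (0.13 ± 0.17 and -0.28 ± 0.21 at room temperature), and neither did the Zbtb7b paralogues Zbtb7a (0.20 ± 0.18) and Zbtb7c (-0.11 ± 0.18). Of 14 ephrin-A ligands and EphA receptors, members included, 0 passed between genotypes in limma at room temperature, where Efna2 had -1.23 ± 0.26 (adjusted p = 0.069). There 1 had an unadjusted p under 0.05 (7.14%, against 11.4% of all genes). In the cold 1 passed (7.14%, against 0.911% of all genes), the receptor Epha4, which was lower in KO (-0.67 ± 0.14, adjusted p = 0.0477). The median difference of these 14 was 0.02 at room temperature and -0.04 in the cold.

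With cold, 5 of the 14 passed in KO and 5 in WT, 2 higher and 3 lower in each, or 35.7% of the list, against 19.2% of all genes in KO and 17.4% in WT. The ligand Efna5 fell by 1.19 in KO and 1.26 in WT on the log2 scale (adjusted p = 0.000243 and 0.000213), in the direction of Efna1. The receptor Epha2 was higher in the cold, by 1.41 ± 0.25 in KO and 1.10 ± 0.25 in WT (adjusted p = 0.00203 and 0.01), and Epha4 fell by 0.83 in KO (adjusted p = 0.0013).

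Of 8 membrane ADAM proteases, 1 passed between genotypes at room temperature (12.5%, against 0.55% of all genes). Adam12 was lower in KO, with means of 5.22 in KO and 6.55 in WT (-1.33 ± 0.12, 2.51-fold, adjusted p = 0.000198). In the cold Adam12 was at 8.51 in KO and 8.67 in WT, so that it rose by 3.29 in KO and 2.12 in WT, and it was among the 6 interaction calls (1.17 ± 0.17, adjusted p = 0.0453). With cold, 4 of the 8 were higher and 1 lower in KO (62.5%, against 19.2% of all genes), and 4 were higher and 0 lower in WT (50%, against 17.4%). Adam8 and Adam17 rose in both genotypes, as did Adam15 by its brighter probe set, while Adam10 fell by 0.47 on the log2 scale in KO (adjusted p = 0.00919) and had -0.20 ± 0.11 in WT (adjusted p = 0.252). Of 4 measured genes on the way from riboflavin to FAD, 1 passed between genotypes at room temperature, against 0.55% of all genes. Averaged over both temperatures 1 passed, against 1.63%. Flad1 was the gene that passed in each, and it was lower in KO. In the cold 0 of the 4 passed in limma, against 0.911%. With cold, 1 of the 4 was higher and 0 lower in each genotype, against 19.2% of all genes in KO and 17.4% in WT. The riboflavin transporter Slc52a3 rose by 0.84 ± 0.19 in KO and 0.62 ± 0.19 in WT (adjusted p = 0.0073 and 0.0379).

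Among 10 sugar transporters, 0 passed between genotypes at room temperature in limma (against 0.55% of all genes). In the cold 1 passed (10.0%, against 0.911%), and averaged 1 (10.0%, against 1.63%). Slc2a1, the glucose transporter GLUT1, was higher in KO in the cold (8.97 in KO and 7.99 in WT, 0.98 ± 0.18, adjusted p = 0.0279). With cold, 1 of the 10 was higher and 2 lower in each genotype (30.0%, against 19.2% of all genes in KO and 17.4% in WT). Slc2a1 rose by 1.59 ± 0.18 in KO and 0.86 ± 0.18 in WT (adjusted p = 0.000105 and 0.00602). Slc50a1 and Slc2a4, the insulin-responsive transporter GLUT4, fell, Slc2a4 by 0.75 in KO and 0.53 in WT (adjusted p = 0.00195 and 0.0165). Of 12 oligosaccharyltransferase genes, 0 passed between genotypes at room temperature, in the cold or averaged in limma. An unadjusted p under 0.05 was found for 0, 1 and 1 (0.0%, 8.33% and 8.33%, against 11.4%, 14.4% and 14.7% of all genes). With cold, 1 of the 12 passed in KO and 1 in WT (8.33% in each, below the 19.2% and 17.4% of all genes). This was Ostc, which rose by 0.57 ± 0.16 in KO and 0.68 ± 0.16 in WT. Of 10 measured genes tied to Zbtb7b in thymocytes, 4, 1 and 3 had an unadjusted p under 0.05 between genotypes at room temperature, in the cold and averaged. These are 40.0%, 10.0% and 30.0%, against 11.4%, 14.4% and 14.7% of all genes. After adjustment in limma 0 passed in the cold or averaged. At room temperature 1 passed (10.0%, against 0.55% of all genes), Cd8a, the co-receptor of cytotoxic T cells. Its signal was low, with means of 3.52 in KO and 2.53 in WT at room temperature (0.99 ± 0.16, adjusted p = 0.0208), beside the T cell marker means given above. In the cold its means were 2.84 in KO and 3.19 in WT (-0.35 ± 0.16, adjusted p = 0.358). With cold, 3 of the 10 passed in KO and 2 in WT (30.0% and 20.0%, against 19.2% and 17.4% of all genes). Cd8a belongs to that marker list as well. Cd4 (0.18 ± 0.28, adjusted p = 0.868) and Runx3 (0.34 ± 0.19, adjusted p = 0.552) did not pass at room temperature. The median KO minus WT difference at room temperature was -0.06 for the oligosaccharyltransferase genes, 0.10 for the sugar transporters, 0.08 for the ADAM proteases and 0.09 for the thymocyte genes, against 0.01 over all genes.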

How the data were processed

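The deposited values were log2 signals per probe set that the authors made with oligo and RMA, per the submitters' processing notes, which give no versions or genome build. RMA subtracts background, forces a common distribution on the arrays and merges probes into probe sets. The raw scans were not used here. Groups came from titles, source and characteristics. Of 41345 probe sets, 1814 carried several symbols and 16010 none in the platform annotation, and 1082 genes with several probe sets were represented by the brightest.

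In R 4.3.3, limma 3.58.1 estimated 1 mean for each group from all 12 arrays (lmFit, eBayes), giving 7 two-sided comparisons adjusted by Benjamini-Hochberg over 22180 genes at a threshold of 0.05, with no filter on low signal. The fit was tested on simulated data. Of 100 genes changed by 1 log2 unit between genotypes, 70 were recovered at room temperature and 65 in the cold. Of 100 changed by 2, it recovered 98 and 99, with 4 false calls at each temperature. Differences of 1 or less can therefore be missed. The members and lists were chosen with earlier results of these data known. The text names the members, neighbours within 25 places that passed between genotypes, the 5 genes most like Zbtb7b, Dcst1 and Dcst2, and of each list those that passed between genotypes and up to 4 others of smallest p. Il6ra, Dennd4b, Paqr6, Noct, Fam102b, Cdc42se1 and Tiparp lie outside this rule, picked once their values were known. For the likeness, predicted genes, receptors of smell, small RNAs and, for Dcst1 and Dcst2, genes with a mean signal under 4 were left out. Gene order and promoters came from RefSeq (GRCm38.p6).

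Alternatives took all probe sets singly or averaged per gene, required a mean signal of at least 4 or 5, used cyclic loess, median centring, array weights or a trended robust spread, blocked on the replicate number, fitted only the 6 arrays of a comparison, or left out each array. Added after seeing the data were a skeletal muscle covariate and a fit without KO cold replicates 1 and 3.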

Additional observations from a re-analysis of the deposited data

Results flagged for a closer look

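Efna1 was higher on every KO array than on any WT array at room temperature and lower on every KO array in the cold. The change of the KO minus WT difference with cold was -0.585 ± 0.19 (SE) and did not pass after adjustment over all genes in limma (adjusted p = 0.317). Genotype groups did not overlap for 17.0% of all genes at room temperature and 20.6% in the cold. The share that did so in opposite directions was not counted.

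Flad1 was higher on every cold array than on any room-temperature array in KO, and lower on every cold array in WT. The difference between the cold responses, KO minus WT, was 0.51 ± 0.17 and did not pass either (adjusted p = 0.325). Cold and room-temperature groups did not overlap for 31.6% of all genes in KO and 36.8% in WT, and opposite directions were not counted here either.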

How the results depend on the processing

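Among 25 member calls, 571 values were recomputed under the alternatives and 518 stayed past the threshold with the same sign, and 0 calls turned their sign. A call was gained in 11 recomputed values, most of them for Krtcap2 with cold. Without a call in either fit, 79 differences changed sign, none larger than 0.27. The numbers of members that passed, higher or lower, moved by over 1.5 times as follows. Requiring a mean signal of at least 5, which leaves out Zbtb7b, Dcst1, Dcst2, Efna3 and Efna4, gave 0 higher and 1 lower in KO at room temperature, 0 higher and 0 lower in the cold, 0 higher and 1 lower averaged, and 1 higher with cold in WT and averaged over both genotypes. A mean signal of at least 4, which leaves out Zbtb7b, Efna3 and Efna4, gave 1 lower in KO in the cold and 1 higher with cold in WT, KO and averaged. Leaving out KO cold replicates 1 and 3 gave 0 lower in KO in the cold, 1 higher with cold in WT and 0 higher with cold in KO, where the single KO cold array left is taken to have the spread of the rest. The higher count with cold was 1 in WT with every probe set on its own, with the mean of probe sets, with median centring, with the trended robust spread and with the 6 arrays alone, and 1 in KO with the trended robust spread, array weights and the 6 arrays alone. Efna3 was the member lost in these, except that the mean of probe sets lost Adam15. With each array left out in turn, the higher count with cold ranged from 1 to 2 in both KO and WT, and the lower count between genotypes from 2 to 3 at room temperature and averaged, Flad1 being the member lost.

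The replicate numbers did not pair the arrays, since 3 of 18 same-number pairs correlated above 0.1 (range -0.313 to 0.258). With the number as a block, 1 member was higher with cold in WT and 1 in KO, Efna3 being lost in both, and Flad1 missed the threshold between genotypes at room temperature (adjusted p = 0.0565) and averaged (0.0532). It changed no other call of the members. Signals under 4 limit what can be said of Efna3, Efna4, Dcst1 in WT and Zbtb7b and Dcst2 in KO.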
